A study of Mus musculus with 16 samples.

Results

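The 33 genes described here encode the citric acid cycle and the steps that feed pyruvate into it. They were chosen by symbol: 16 cycle enzymes, 4 subunits of the pyruvate dehydrogenase complex, the 4 pyruvate dehydrogenase kinases, 3 genes of the opposing phosphatases, the 2 subunits of the mitochondrial pyruvate carrier, and 4 anaplerotic genes, which code for pyruvate carboxylase and the malic enzymes. All 33 were found among the 57186 gene IDs of the count table, and all 33 passed the filter on low counts, as did 15206 gene IDs in all. Their transcripts were measured by bulk RNA-seq in the left ventricle of mice of the strain labelled C57/BL6N.

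The 4 groups combine genotype and operation, with 4 biological replicates each and 16 libraries in all. Control mice are labelled WT, and mice whose Tfeb gene was knocked out in cardiomyocytes only are labelled cKO. Each genotype underwent either a sham operation or transverse aortic constriction (TAC), a narrowing of the aorta that puts the left ventricle under pressure overload. The Cre line and its promoter, the alleles of the WT mice, age, sex and the time after surgery are not given in the sources used here. Because whole ventricle was sequenced, the cells other than cardiomyocytes kept an intact Tfeb gene and contributed to every library.

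As background, pyruvate from glycolysis and lactate enters the mitochondrion through a carrier made of Mpc1 and Mpc2, and the pyruvate dehydrogenase complex then turns it into acetyl-CoA. Kinases (Pdk) phosphorylate and switch off the complex, and phosphatases (Pdp) switch it on again. Citrate synthase joins acetyl-CoA to oxaloacetate, and the following dehydrogenases of the cycle deliver the NADH that the respiratory chain burns. Pyruvate carboxylase and the malic enzymes connect the pyruvate and malate pools outside the main turn of the cycle. The heart draws most of its ATP from this route, fed mainly by fatty acids in the healthy adult. TFEB, a transcription factor of lysosome and autophagy genes, has known links to mitochondrial gene programmes.

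The deleted gene was checked before any member. Levels below are CPM, counts brought to a common library size with TMM normalization factors. In the WT libraries Tfeb stood at 30.9, 37.3, 40.1 and 37.5 CPM after sham and 39.9, 34.6, 20.6 and 21.0 CPM after TAC, and in the cKO libraries at 10.0, 9.11, 9.67 and 13.0 CPM and 14.7, 13.8, 13.0 and 9.36 CPM. Every cKO library lay below every WT library of the same operation. Differences were tested with edgeR's quasi-likelihood test, with Benjamini-Hochberg adjustment over all 15206 tested genes and an adjusted p under 0.05 as the threshold. Tfeb was lower in cKO after sham (log2 fold change -1.80, SE 0.20, adjusted p = 0.000604) and after TAC (log2 fold change -1.19, SE 0.20, adjusted p = 0.0138). Library totals ran from 12946878 to 16347388 counts, and the members' own counts ran from 23 for Pdk3 to 37003 for Ogdh.

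The tissue label was checked against markers. The summed level of 10 cardiomyocyte markers was 60869 to 71111 CPM in WT after sham and 48355 to 59666 CPM after TAC, and in cKO 57943 to 67156 CPM and 35459 to 52520 CPM. In the same order of groups, 8 fibroblast markers summed to means of 1087, 3204, 1420 and 5928 CPM, and 7 macrophage markers to 251, 379, 352 and 503 CPM. Myh6 was the largest of the 10 cardiomyocyte markers, at 26567 to 30110 CPM in WT sham, where the sum was 60869 to 71111 CPM. By the test, 2 of the 10 fell with TAC in WT, 7 fell in cKO and 0 rose. The 10 markers did not all move alike, and Ttn and Actn2 did not follow the sum. Ttn was at 2182 to 3431 CPM after sham and 2992 to 3547 CPM after TAC in WT. In cKO it was at 3431 to 3665 CPM and 3208 to 3809 CPM. Actn2 was at 2144 to 2512 CPM and 2427 to 2824 CPM in WT, and at 1872 to 2261 CPM and 1851 to 2076 CPM in cKO. Of the 5 atrial markers, Myl7 reached 870.2 CPM in WT sham replicate 3 but at most 0.242 CPM in cKO TAC, and Bmp10 stayed at or below 0.452 CPM in every group. Myl7 was next highest in WT TAC replicate 4, at 328 CPM, and these 2 libraries held the most Myl7 of the 16. Nppa, another of the 5, did not follow Myl7: cKO TAC libraries held 959 to 1930 CPM, and WT sham libraries 14.1 to 1220 CPM. The summed level of the 5 had its highest group mean in cKO TAC, at 1476 CPM, with WT sham next at 1028 CPM. The cardiomyocyte sum and the summed CPM of the 16 cycle enzymes among the members both had their lowest group mean in cKO TAC. In bulk tissue, fewer cells of a type and less RNA per cell cannot be told apart.

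A few members share sequence elements in their promoters. RefSeq promoters of the mouse build GRCm38.p6, covering 250 bases before to 50 bases after a start, were on hand for 30 of the 33 members, and not for Idh3a, Me2 and Pdp1. Both strands were searched for CACGTG, the E-box core bound by TFEB and many other basic helix-loop-helix factors, for the longer palindromic site of TFEB-type factors that contains CACGTG, and for motifs of ERR, ETS and NRF factors. CACGTG occurred in the promoters of Ogdh, Pdk2, Pdp2, Pdpr and Pcx, which is 5 of 30 members (16.7%) against 8.09% of all 27025 genes with a promoter. The longer TFEB-type palindrome was in 0 of the 30 members and in 0.37% of all genes. The ETS-type CCGGAAG (or its reverse complement CTTCCGG) was found in Idh3b, Idh3g, Dlst and Mpc1, 13.3% of members against 9.93% of genes. The ERR-type TCAAGGTCA and the NRF-type palindrome were in 0 of 30, against 0.466% and 1.07% of genes. Windows around 5 of these matches are shown because Pdk2 and Pdp2 were the kinase and phosphatase genes that fell with TAC in both genotypes, Pcx fell in WT alone by the test, Idh3g had the smallest adjusted p in WT, and Mpc1 belongs to the pyruvate carrier. The capitals mark the motif, each line runs 5′ to 3′ on the gene's strand, and no exon of the GENCODE annotation overlaps a window.
Pdp2 (chr8:104591228-104591283, plus strand, motif at -219 from the start): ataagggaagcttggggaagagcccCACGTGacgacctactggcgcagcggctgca
Pdk2 (chr11:95041467-95041522, minus strand, at -126): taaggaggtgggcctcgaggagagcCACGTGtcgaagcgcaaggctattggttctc
Pcx (chr19:4510222-4510254, plus strand, at -248, where the promoter table begins): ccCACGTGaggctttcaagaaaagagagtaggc
Idh3g (chrX:73786970-73787026, minus strand, at -104): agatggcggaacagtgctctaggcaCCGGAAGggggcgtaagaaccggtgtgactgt
Mpc1 (chr17:8283537-8283593, plus strand, at -225): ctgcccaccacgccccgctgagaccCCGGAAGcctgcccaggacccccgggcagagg
A match says only that these letters are present, and binding was not measured.

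The members differed widely in level. Per kilobase of exon in WT sham, Mdh1, the cytosolic malate dehydrogenase of the malate-aspartate shuttle, was the highest at 808 CPM per kb, followed by Idh2, the mitochondrial NADP-dependent isocitrate dehydrogenase, at 753. Ogdh, the decarboxylating subunit of the 2-oxoglutarate dehydrogenase complex, came next at 486, then Mdh2, the mitochondrial malate dehydrogenase, at 377. Among the kinases the order on the same per-length scale was Pdk2 at 163, Pdk4 at 108, Pdk1 at 22.1 and Pdk3 at 0.982 CPM per kb. Pdk3 was the lowest of the 33, with Me2, the mitochondrial NAD-dependent malic enzyme, next at 1.35. Succinate-CoA ligase has a shared subunit, Suclg1 (79.0 CPM per kb), and its ADP-forming partner Sucla2 (138) exceeded its GDP-forming partner Suclg2 (35.4). The heat map of the members shows each library against the WT sham mean.

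**Figure D1:**
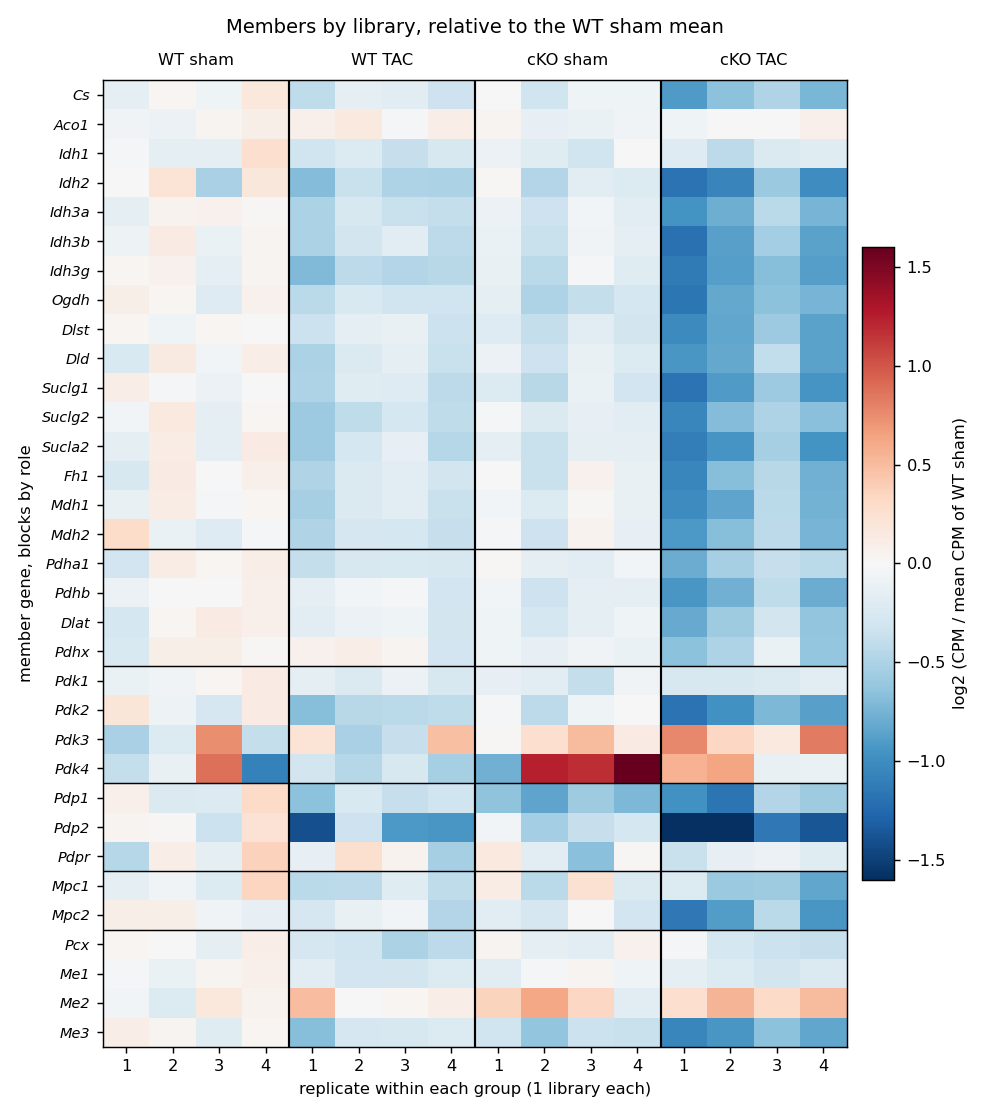
Heat map of the 33 members (rows, in blocks by role) in the 16 libraries (columns, 4 replicates per group). Colour is log2 of CPM over the WT sham mean, on a scale that ends at ±1.6; the cycle enzymes are palest in the WT sham block and shift most in the cKO TAC block, while Pdk4 varies within groups.

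The first comparison asks how these genes respond to pressure overload when Tfeb is intact. In WT ventricles 9 of the 33 members fell with TAC and 0 rose. Those that fell were Idh3g, Idh3a and Idh2 of the isocitrate dehydrogenases, Suclg2 of succinate-CoA ligase, the kinase Pdk2, the phosphatase Pdp2, pyruvate carboxylase (Pcx) and the malic enzymes Me1 and Me3. Pdp2 fell furthest, to 55.6% of its sham level. Across all tested genes 15.8% passed by the same rule, 6.14% lower and 9.7% higher. The members' median log2 fold change was -0.32, beside -0.01 for all tested genes, and 30 of 33 lay below 0. Scaled by the cardiomyocyte markers instead of TMM, 22 lay below 0 and the median was -0.06. With that scaling 1 member, Pdp2, passed, when 18.2% of all tested genes did.

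Of the 16 cycle enzymes, 4 fell in WT with TAC, and 11 had all 4 TAC libraries below all 4 sham libraries, an arrangement seen downward in 8.44% of all tested genes. Citrate synthase (Cs), which opens the cycle, was at 1089, 1234, 1157 and 1362 CPM after sham and 916, 1089, 1067 and 962 CPM after TAC. The groups did not overlap, yet Cs did not pass (log2 fold change -0.26, SE 0.11, adjusted p = 0.104). The NAD-dependent isocitrate dehydrogenase, a rate-controlling step, is built from Idh3a, Idh3b and Idh3g. Its catalytic subunit Idh3a was at 531, 609, 616 and 593 CPM after sham and 415, 492, 459 and 449 CPM after TAC. Idh3b was at 788, 906, 773 and 855 CPM after sham and 584, 679, 739.6 and 619.5 CPM after TAC. Idh3g was at 548, 562, 482 and 552 CPM after sham and 329, 402, 386 and 393 CPM after TAC. For each of the 3 subunits every TAC library was lower than every sham library. Idh3g (log2 fold change -0.51, SE 0.11, adjusted p = 0.00458) and Idh3a (log2 fold change -0.37, SE 0.11, adjusted p = 0.0244) fell. Idh3b did not pass (log2 fold change -0.34, SE 0.12, adjusted p = 0.0626). Idh2 fell as well (log2 fold change -0.51, SE 0.16, adjusted p = 0.0347), although its WT sham libraries overlapped with TAC because replicate 3 was at 1357 CPM.

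The 2-oxoglutarate dehydrogenase complex carries out the next oxidation, with Ogdh and the succinyltransferase Dlst as its own subunits. Ogdh was at 2826, 2718, 2291 and 2777 CPM after sham and 1969, 2248, 2124 and 2127 CPM after TAC. Dlst was at 719, 668, 716 and 703 CPM after sham and 553, 635, 647 and 552 CPM after TAC. Neither passed, although the groups did not overlap (Ogdh log2 fold change -0.33, SE 0.11, adjusted p = 0.0605; Dlst log2 fold change -0.23, SE 0.10, adjusted p = 0.108). Succinate-CoA ligase makes GTP or ATP from succinyl-CoA. Suclg1 was at 394, 356, 342 and 368 CPM after sham and 259.7, 320.0, 316 and 272 CPM after TAC. Suclg2 was at 158, 183, 146 and 167 CPM after sham and 109, 124, 134 and 124 CPM after TAC. Sucla2 was at 498, 598, 498 and 604 CPM after sham and 367, 450.2, 503 and 399 CPM after TAC. WT TAC replicate 3 overlapped with sham for Sucla2, and Suclg1 and Suclg2 had no overlap. Suclg2 passed (log2 fold change -0.42, SE 0.11, adjusted p = 0.0125), and Suclg1 (log2 fold change -0.32, SE 0.12, adjusted p = 0.0664) and Sucla2 (log2 fold change -0.35, SE 0.12, adjusted p = 0.0603) did not. The remaining enzymes did not pass: Dld, Fh1, Mdh1 and Mdh2 had log2 fold changes from -0.35 to -0.29, cytosolic Idh1 -0.29 and Aco1, the cytosolic aconitase that doubles as an iron sensor, 0.08. Dld is the dihydrolipoamide dehydrogenase shared by several complexes, and Fh1 is fumarase. As a sum, the 16 cycle enzymes were at 13967 ± 1012 CPM (SD, n = 4) after sham and 10967 ± 866.5 CPM after TAC.

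The pyruvate dehydrogenase subunits were not called in WT. Pdha1, the catalytic alpha subunit that the kinases phosphorylate, was at 599.8, 807, 757 and 799 CPM after sham and 567, 620.3, 628 and 619.7 CPM after TAC. Its beta partner Pdhb was at 592, 634, 629.8 and 671 CPM after sham and 565, 612, 622 and 512 CPM after TAC. Sham and TAC libraries overlapped for both (Pdha1 log2 fold change -0.28, SE 0.11, adjusted p = 0.0800; Pdhb log2 fold change -0.13, SE 0.11, adjusted p = 0.441). The acetyltransferase core Dlat and the binding protein Pdhx had log2 fold changes of -0.16 and -0.01, and the sum of the 4 subunits was 1989 ± 193 CPM (SD, n = 4) after sham and 1749.6 ± 103 CPM after TAC. Of the 7 kinase and phosphatase genes, Pdk2 and Pdp2 passed. By group mean per length, Pdk2 was the most abundant kinase in the WT groups and Pdk4 in the cKO groups. Single libraries departed from this order. WT sham replicate 3 held 697 CPM of Pdk4 and 426 CPM of Pdk2, and cKO sham replicate 1 held 223 CPM and 501 CPM. Pdk4 did not pass between genotypes after sham or TAC by edgeR's test (adjusted p = 0.291 and 0.501). In WT, Pdk2 was at 586, 484, 426 and 561 CPM after sham and 322, 379, 382 and 389 CPM after TAC. Every TAC library lay below every sham library, and Pdk2 fell (log2 fold change -0.48, SE 0.12, adjusted p = 0.0131). Pdk4, a kinase induced by fatty acids and fasting, was at 290.2, 350.0, 697 and 179 CPM after sham and 309, 276, 317 and 263 CPM after TAC. Its sham libraries spanned the TAC values, with replicate 3 highest, and it did not pass (log2 fold change -0.38, SE 0.45, adjusted p = 0.606); without WT sham replicate 3 the log2 fold change was 0.09. Pdk1 (-0.18) and Pdk3 (0.01) did not pass. On the phosphatase side, Pdp2 was at 32.7, 32.1, 24.9 and 37.3 CPM after sham and 12.0, 25.3, 16.8 and 16.7 CPM after TAC. Only TAC replicate 2 reached the sham range, and Pdp2 fell (log2 fold change -0.85, SE 0.19, adjusted p = 0.00662). Pdp1 was at 47.3, 38.0, 38.6 and 55.2 CPM after sham and 28.4, 37.8, 34.6 and 35.8 CPM after TAC, without overlap, and did not pass (log2 fold change -0.39, SE 0.15, adjusted p = 0.0777). Pdpr, the regulatory subunit, had a log2 fold change of -0.06.

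The carrier subunits overlapped between sham and TAC in WT. Mpc1 was at 53.0, 56.2, 50.03 and 74.0 CPM after sham and 43.1, 43.7, 51.0 and 44.0 CPM after TAC. Mpc2 was at 313, 313, 282 and 269 CPM after sham and 245, 271, 286 and 213 CPM after TAC. Neither passed (Mpc1 log2 fold change -0.36, SE 0.15, adjusted p = 0.117; Mpc2 log2 fold change -0.21, SE 0.13, adjusted p = 0.278). Of the 4 anaplerotic genes, 3 fell. Pcx, which makes oxaloacetate from pyruvate, was at 51.3, 50.2, 45.6 and 54.0 CPM after sham and 41.8, 40.3, 35.4 and 37.4 CPM after TAC. The cytosolic malic enzyme Me1, a source of NADPH, was at 124, 116, 129.5 and 133 CPM after sham and 110.3, 102, 102 and 108 CPM after TAC. The mitochondrial Me3 was at 103, 98.1, 83.2 and 97.5 CPM after sham and 59.8, 79.0, 79.8 and 82.2 CPM after TAC. The groups did not overlap for any of the 3: Pcx (log2 fold change -0.38, SE 0.09, adjusted p = 0.0121), Me1 (log2 fold change -0.25, SE 0.07, adjusted p = 0.0270) and Me3 (log2 fold change -0.35, SE 0.11, adjusted p = 0.0427) all passed. Me2 had a log2 fold change of 0.18 and did not pass. Beside these falls, 2 of 10 cardiomyocyte markers fell in WT with TAC (median log2 fold change -0.26), 6 of 8 fibroblast markers rose (1.503) and 4 of 7 macrophage markers rose (0.63). Scaled by the summed cardiomyocyte markers, Idh3g had a log2 fold change of -0.25 and Me1 of 0.01; the part of the fibroblast and macrophage transcripts was not tested. The count of 9 was 4 without WT TAC replicate 1 (8% of all tested genes passed) and 5 without WT sham replicate 4 (10.9%). Idh3g and Pdp2 passed under all 17 other filters, scalings, models and left-out libraries apart from the marker scaling, under which Pdp2 alone passed.

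The same operation in knockout ventricles was followed by falls in most of the pathway. With TAC, 23 of the 33 members fell in cKO and 0 rose, and they included 14 of the 16 cycle enzymes, the 4 pyruvate dehydrogenase subunits and both carrier subunits. The others were Pdk2, Pdp2 and Me3. The cycle enzymes that fell stood at 59.8% to 70.0% of their cKO sham level, and Pdp2 at 44.6%. Over all tested genes, 26.5% passed by the same rule, 12.4% lower and 14.2% higher. The members' median log2 fold change was -0.55, beside 0.00 for all tested genes. Scaled by the cardiomyocyte markers, the median was -0.04 and 2 members fell (Pdk2 and Pdp2). With that scaling 8 rose (Aco1, Idh1, Pdk1, Pdk3, Pdp1, Pdpr, Me1 and Me2), when 59.4% of all genes passed. With library totals only, 18 fell and 1 rose (Aco1), when 32.1% of all genes passed. That setting put the median of all genes at 0.195 on the log2 scale.

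For the cycle enzymes that fell, every cKO TAC library lay below every cKO sham library, which holds downward for 13.8% of all tested genes and for 21 of the 33 members. Cs was at 1201, 968, 1158 and 1151 CPM after sham and 648, 766, 869 and 730.1 CPM after TAC (log2 fold change -0.57, SE 0.11, adjusted p = 0.00107). Idh3a was at 549, 466, 569 and 518 CPM after sham and 302, 343, 436 and 349.6 CPM after TAC. Idh3b was at 774, 648, 799.8 and 750.1 CPM after sham and 362, 455, 569 and 458 CPM after TAC. Idh3g was at 495, 399, 529 and 470.2 CPM after sham and 245, 289.9, 334 and 290.4 CPM after TAC. All 3 subunits of this dehydrogenase fell: -0.56 (SE 0.11, adjusted p = 0.00117) for Idh3a, -0.69 (SE 0.12, adjusted p = 0.000618) for Idh3b and -0.71 (SE 0.11, adjusted p = 0.000209) for Idh3g on the log2 scale. Ogdh was at 2406, 1882, 2037 and 2179.9 CPM after sham and 1185, 1502, 1684 and 1582 CPM after TAC. Dlst was at 607, 539, 618 and 574 CPM after sham and 345, 393, 470.1 and 388 CPM after TAC. The lowest cKO TAC library was replicate 1 for each of these 6 genes, and replicate 3 was the highest. Ogdh (log2 fold change -0.51, SE 0.11, adjusted p = 0.00336) and Dlst (log2 fold change -0.55, SE 0.10, adjusted p = 0.000617) both passed.

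Succinate-CoA ligase fell in all 3 subunits. Suclg1 was at 313, 268, 339 and 294 CPM after sham and 161, 195, 244 and 190.4 CPM after TAC. Suclg2 was at 160.3, 139, 149 and 145 CPM after sham and 79.6, 101, 116 and 103 CPM after TAC. Sucla2 was at 493, 428, 492 and 492 CPM after sham and 255, 286, 379 and 282 CPM after TAC. The log2 fold changes were -0.62 (SE 0.12, adjusted p = 0.000977), -0.57 (SE 0.11, adjusted p = 0.000837) and -0.66 (SE 0.13, adjusted p = 0.00102) in that order. Dld, Fh1, Mdh1, Mdh2 and Idh2 fell with log2 fold changes from -0.74 to -0.55 (adjusted p 0.000673 to 0.00330), Idh2 the furthest. The 2 cycle enzymes that did not pass were both cytosolic, Aco1 (0.07) and Idh1 (-0.11); Mdh1, also cytosolic, fell (log2 fold change -0.66, SE 0.12, adjusted p = 0.000673). The cycle enzymes summed to 12328 ± 1099 CPM (SD, n = 4) after sham and 8074 ± 1225 CPM after TAC. Scaled by the cardiomyocyte markers, 14 of the 16 still had a log2 fold change below 0, with a median of -0.07, and 0 fell by the test.

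The pyruvate dehydrogenase complex fell as a whole in cKO, by TMM scaling. Pdha1 was at 749, 671, 655 and 722 CPM after sham and 428, 512, 573 and 551 CPM after TAC. Pdhb was at 611, 503, 569 and 565 CPM after sham and 331, 371, 476 and 365 CPM after TAC. Neither gene had overlapping groups, and both passed (Pdha1 log2 fold change -0.44, SE 0.11, adjusted p = 0.00632; Pdhb log2 fold change -0.54, SE 0.11, adjusted p = 0.00152). Dlat (-0.42, adjusted p = 0.00960) and Pdhx (-0.36, adjusted p = 0.0314) also passed; for Pdhx cKO TAC replicate 3 overlapped with sham. The 4 subunits summed to 1824 ± 111 CPM (SD, n = 4) after sham and 1325 ± 183 CPM after TAC. Per 100 CPM of cardiomyocyte markers they were at 2.88 ± 0.0783 and 2.98 ± 0.128, and scaled that way Pdha1, Dlat and Pdhx had log2 fold changes above 0 (0.07, 0.08 and 0.14). Of the kinases, Pdk2 was at 501, 386, 489.8 and 511 CPM after sham and 226, 264, 314 and 283 CPM after TAC, without overlap, and fell (log2 fold change -0.80, SE 0.12, adjusted p = 0.000226). Pdk4 was at 223, 898, 856 and 1177 CPM after sham and 558, 586, 349.8 and 353 CPM after TAC. Its sham values ranged widely, with replicate 1 lowest and replicate 4 highest, and it did not pass (log2 fold change -0.77, SE 0.45, adjusted p = 0.232). Pdk1 (-0.05) and Pdk3 (0.31) did not pass either. Pdp2 was at 30.7, 21.8, 24.6 and 26.3 CPM after sham and 9.45, 9.97, 14.4 and 12.3 CPM after TAC, with no overlap, and fell (log2 fold change -1.16, SE 0.19, adjusted p = 0.000452). Pdp1 was at 28.7, 24.9, 30.3 and 27.2 CPM after sham and 22.9, 19.9, 32.5 and 30.1 CPM after TAC; the groups overlapped and Pdp1 did not pass (log2 fold change -0.07, SE 0.15, adjusted p = 0.759). Pdpr had a log2 fold change of -0.06.

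Both carrier subunits fell in cKO with TAC by TMM scaling. Mpc1 was at 63.2, 43.3, 68.8 and 49.8 CPM after sham and 49.9, 38.6, 39.2 and 32.8 CPM after TAC. Mpc2 was at 259, 245, 293 and 238 CPM after sham and 133, 159, 218 and 154 CPM after TAC. The Mpc2 groups were separate, those of Mpc1 overlapped, and both passed (Mpc1 log2 fold change -0.49, SE 0.15, adjusted p = 0.0255; Mpc2 log2 fold change -0.64, SE 0.13, adjusted p = 0.00184); scaled by cardiomyocyte markers, Mpc1 had a log2 fold change of 0.07. Among the anaplerotic genes only Me3 fell. Me3 was at 76.3, 61.7, 75.4 and 74.5 CPM after sham and 46.3, 49.95, 60.8 and 53.6 CPM after TAC (log2 fold change -0.45, SE 0.11, adjusted p = 0.00691). Pcx was at 51.8, 45.2, 44.7 and 52.9 CPM after sham and 49.5, 41.4, 39.7 and 38.9 CPM after TAC and did not pass (log2 fold change -0.20, SE 0.09, adjusted p = 0.130). Me1 was at 112, 122, 129.7 and 119.9 CPM after sham and 114, 108, 103 and 107 CPM after TAC and did not pass (log2 fold change -0.16, SE 0.07, adjusted p = 0.107). Me2 had a log2 fold change of 0.10. Scaled by the cardiomyocyte markers, the log2 fold changes of all 4 were above 0. In cKO 7 of 10 cardiomyocyte markers fell with TAC (median log2 fold change -0.57), 7 of 8 fibroblast markers rose (1.71) and 5 of 7 macrophage markers rose (0.64). Leaving out each library in turn gave 21 to 23 members that fell, when 17.6% to 27.8% of all tested genes passed. Of the 23 members, 18 passed under all 17 other filters, scalings, models and left-out libraries apart from the marker scaling. The exceptions were Pdhx and Mpc1, lost without several libraries each, and Pdha1, Dlat and Me3, lost when libraries were scaled by totals only.

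**Figure D2:**
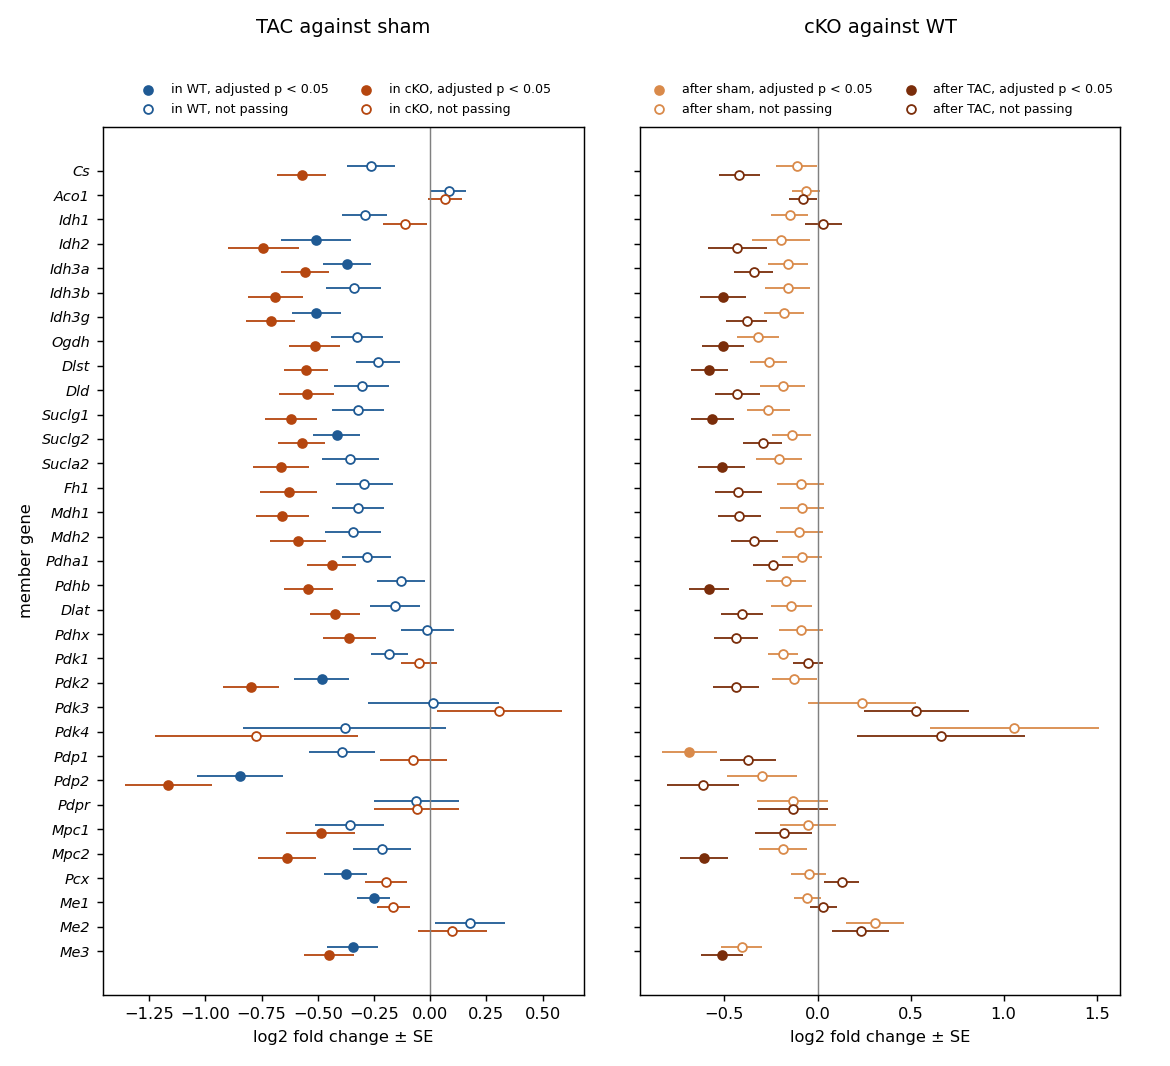
Log2 fold change of each member (rows) with its SE (bars), from the fit with TMM scaling; filled points passed at an adjusted p under 0.05 and open points did not. TAC against sham in WT and cKO is on the left, with 9 and 23 members lower, and cKO against WT after sham and TAC is on the right, with 1 and 8 members lower; no filled point is above 0 (scaled by cardiomyocyte markers, 8 members were higher with TAC in cKO).

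Set side by side, the TAC responses of the 2 genotypes named 7 of the same members: Idh2, Idh3a, Idh3g, Suclg2, Pdk2, Pdp2 and Me3 fell in both. These 7 are 7 of the 9 members that fell in WT and 7 of the 23 that fell in cKO. Pcx and Me1 passed in WT alone, and 16 members passed in cKO alone. Whether the responses differ is a question for the interaction, which subtracts the WT response to TAC from the cKO response. There 0 of 33 members passed and 0% of all tested genes did by edgeR, with 3 members and 716 of all genes at an unadjusted p under 0.05. Those 3 members were Pdhb (log2 fold change -0.41, SE 0.15, adjusted p = 0.946), Dlst (log2 fold change -0.32, SE 0.14, adjusted p = 0.946) and Mpc2 (log2 fold change -0.42, SE 0.18, adjusted p = 0.946). The members' median interaction was -0.23 on the log2 scale, beside 0.00 for all tested genes, and 26 of 33 lay below 0; scaled by the cardiomyocyte markers the median was 0.01 and 14 lay below 0. DESeq2's Wald test called 3 genes of the whole table and 0 members, and limma voom called 0 genes. A difference between genotypes in the TAC response of any named member was therefore not shown by these tests.

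Without overload, 1 of the 33 members differed between genotypes by the test: Pdp1, a calcium-stimulated phosphatase of pyruvate dehydrogenase, was lower in cKO. By the same rule 1.17% of all tested genes passed, 0.552% lower and 0.618% higher. Pdp1 was at 47.3, 38.0, 38.6 and 55.2 CPM in the WT libraries and at 28.7, 24.9, 30.3 and 27.2 CPM in the knockout libraries, so that every cKO library lay below every WT library (log2 fold change -0.69, SE 0.15, adjusted p = 0.0271). Scaled by the cardiomyocyte markers, Pdp1 was lower too (log2 fold change -0.63, adjusted p = 0.0453). The call was lost without WT sham replicate 1 (adjusted p = 0.0628) or 4 (0.0986), and without cKO sham replicate 1 (0.0612), 2 (0.0899) or 4 (0.0929).

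The other members lay close to or somewhat below their WT level. Their median log2 fold change with Pdp1 included was -0.14, beside -0.01 for all tested genes, and 30 of 33 were below 0. An unadjusted p under 0.05 was found for 7 of 33 members, beside 2284 of all 15206 tested genes, a share not far from that of the members. Groups were separate with cKO lower for 5 members, namely Pdp1, Me3, Dlst, Suclg1 and Sucla2, an arrangement found for 3.59% of all tested genes. Me3 had the next smallest adjusted p (log2 fold change -0.41, SE 0.11, adjusted p = 0.0842) and did not pass, nor did Ogdh (log2 fold change -0.32, SE 0.11, adjusted p = 0.180), Dlst (log2 fold change -0.26, SE 0.10, adjusted p = 0.192) or Suclg1 (log2 fold change -0.27, SE 0.12, adjusted p = 0.281). Of the 10 cardiomyocyte markers 0 passed in this comparison, with a median log2 fold change of -0.18. Pdk4 went the other way without passing. As listed above it ranged from 223 to 1177 CPM in the knockout libraries and from 179 to 697 CPM in the WT libraries, and the groups overlapped (log2 fold change 1.06, SE 0.45, adjusted p = 0.291). Its share of the summed kinase CPM was 52.2 ± 18.1% (SD, n = 4) in cKO sham and 33.9 ± 14.6% in WT sham, and that of Pdk2 was 36.0 ± 14.1% and 49.5 ± 12.2%. The summed kinases over the summed dehydrogenase subunits came to 0.782 ± 0.230 in cKO sham and 0.541 ± 0.0950 in WT sham. These ratios overlap between groups, and cKO sham replicate 1, at 0.453, was within the WT range.

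**Figure D3:**
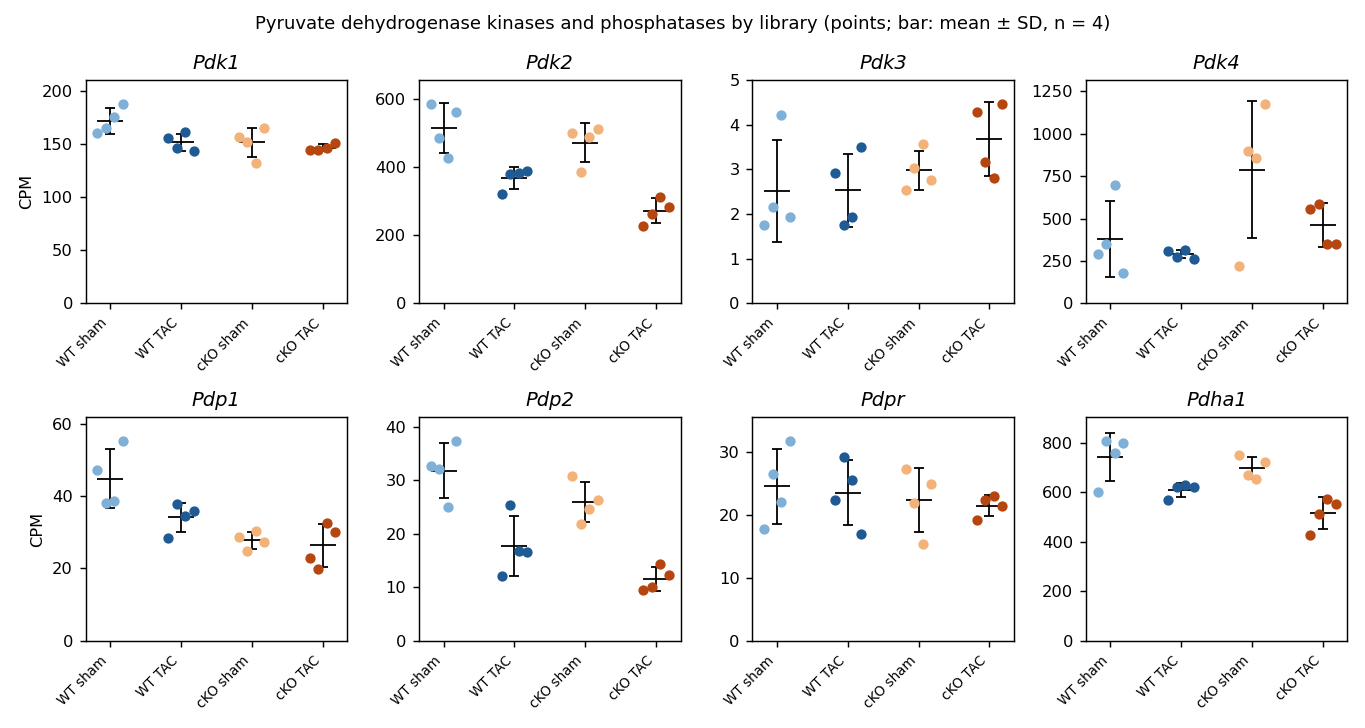
CPM of Pdk1 to Pdk4, Pdp1, Pdp2, Pdpr and Pdha1 (1 panel each, linear axes from 0) in the 4 groups; points are libraries and bars the mean ± SD (n = 4). Pdk2 and Pdp2 step down with TAC in both genotypes, Pdp1 is lower in cKO sham than in WT sham, and Pdk4 spreads from 223 to 1177 CPM within cKO sham.

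Under overload the genotypes differed in 8 members, all lower in cKO: Dlst and Ogdh of 2-oxoglutarate dehydrogenase, Suclg1 and Sucla2 of succinate-CoA ligase, Idh3b, the pyruvate dehydrogenase subunit Pdhb, the carrier subunit Mpc2 and the malic enzyme Me3. By the same rule 1.78% of all tested genes passed, 1.18% lower and 0.598% higher. The members' median log2 fold change was -0.40, beside 0.00 for all tested genes, and 27 of 33 lay below 0. An unadjusted p under 0.05 was found for 23 of 33 members, beside 2643 of all 15206 tested genes. Scaled by the cardiomyocyte markers, the members' median was -0.10, 21 lay below 0 and 0 members passed, when 8.24% of all tested genes did. Of the 10 cardiomyocyte markers 1 was lower in cKO TAC than in WT TAC (median log2 fold change -0.40), and of the 8 fibroblast markers 1 was higher (0.76). Since this comparison and the TAC comparisons share their TAC groups, the falls below are not a second observation of those above.

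Dlst had the smallest adjusted p of the 8. Its cKO TAC libraries, at 345 to 470.1 CPM, all lay below its WT TAC libraries, at 552 to 647 CPM (log2 fold change -0.58, SE 0.10, adjusted p = 0.0123). The other 2-oxoglutarate dehydrogenase subunit, Ogdh, was separated in the same way (log2 fold change -0.51, SE 0.11, adjusted p = 0.0332), as were Idh3b (log2 fold change -0.51, SE 0.12, adjusted p = 0.0401) and Suclg1 (log2 fold change -0.56, SE 0.12, adjusted p = 0.0261). For Sucla2 the groups overlapped, since cKO TAC replicate 3 at 379 CPM exceeded WT TAC replicate 1 at 367 CPM (log2 fold change -0.52, SE 0.13, adjusted p = 0.0441). Pdhb was at 565, 612, 622 and 512 CPM in WT TAC and 331, 371, 476 and 365 CPM in cKO TAC, with no overlap (log2 fold change -0.58, SE 0.11, adjusted p = 0.0157). Its partner Pdha1, with which it forms a fixed-ratio tetramer, did not pass (log2 fold change -0.24, SE 0.11, adjusted p = 0.261). The difference between Pdhb and Pdha1 was not tested. Mpc2 (log2 fold change -0.61, SE 0.13, adjusted p = 0.0287) and Me3 (log2 fold change -0.51, SE 0.11, adjusted p = 0.0303) were lower in cKO with 1 library overlapping, while Mpc1 did not pass (log2 fold change -0.18, SE 0.15, adjusted p = 0.603).

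In all, groups were separate with cKO lower for 7 members, against 5.11% of all tested genes, and with cKO higher for 1, Pdk4, against 4.89%. Pdk4 was at 309, 276, 317 and 263 CPM in WT TAC and 558, 586, 349.8 and 353 CPM in cKO TAC, and did not pass (log2 fold change 0.66, SE 0.45, adjusted p = 0.501). Pdk2 was separate in the other direction and did not pass (log2 fold change -0.44, SE 0.12, adjusted p = 0.0703), and the share of Pdk4 in the kinase CPM was 51.6 ± 8.97% (SD, n = 4) in cKO TAC and 35.8 ± 2.72% in WT TAC. Kinases over dehydrogenase subunits came to 0.680 ± 0.145 in cKO TAC and 0.466 ± 0.0204 in WT TAC, with every cKO TAC library (0.519 to 0.833) above every WT TAC library (0.440 to 0.490). Pcx (log2 fold change 0.13, SE 0.09, adjusted p = 0.525) and Me1 (log2 fold change 0.03, SE 0.07, adjusted p = 0.880) did not pass. The count of 8 rests on few libraries. It was 0 without WT TAC replicate 2 or 3, 1 without cKO TAC replicate 1, 2 or 4, and 5 without WT TAC replicate 4. It was 14 without WT TAC replicate 1 and 21 without cKO TAC replicate 3, while the median stayed between -0.34 and -0.50. The share of all tested genes that passed moved as well. It was 0.0841% and 0.129% without WT TAC replicate 2 and 3, and 0.182%, 0.13% and 0.253% without cKO TAC replicate 1, 2 and 4. It was 1.17% and 3.39% without WT TAC replicate 4 and 1, and 5.91% without cKO TAC replicate 3. Other fits gave 2 (the compared groups alone, 1.04% of all genes), 16 (no filter on low counts, 1.35%) and 18 (DESeq2's Wald test, 5.85%). Without the 2 libraries with the most Myl7 the counts were 7 and 23 with TAC in WT and cKO, and 1 and 5 between genotypes after sham and TAC. In the same order, 13.9%, 26.4%, 1.3% and 1.07% of all tested genes passed.

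**Figure D4:**
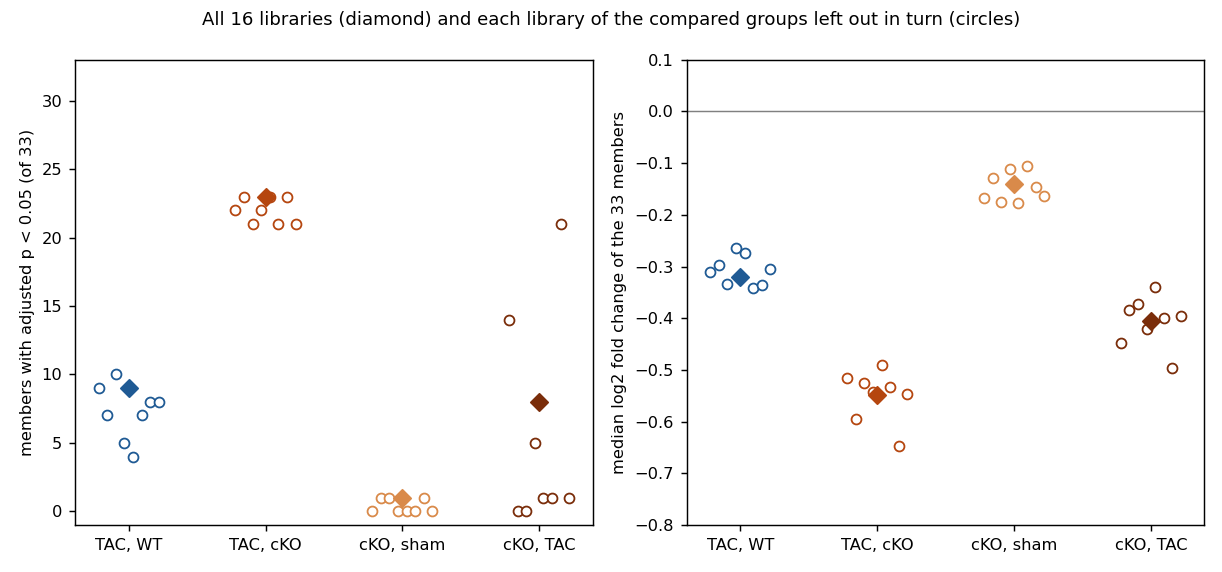
Number of members that passed (left) and the members' median log2 fold change (right) in the 4 comparisons, with all 16 libraries (diamonds) and with each library of the compared groups left out in turn (circles). The count for TAC in cKO stays at 21 to 23 and that for cKO against WT after TAC runs from 0 to 21, while the medians of the latter stay between -0.34 and -0.50. In the refits for cKO against WT after TAC, 0.0841% to 5.91% of all tested genes passed.

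The cycle enzymes and the cardiomyocyte markers were also set against each other within each library. The ratio does not depend on how libraries are scaled. Per 100 CPM of the 10 markers, the cycle enzymes were at 21.2 ± 1.35 CPM (SD, n = 4) in WT after sham and 19.9 ± 0.416 after TAC, and in cKO at 19.5 ± 0.617 and 18.1 ± 0.737. The cKO TAC libraries, from 17.3 to 19.0, lay below every WT TAC library (19.4 to 20.3) and overlapped with cKO sham (18.6 to 20.04). The pyruvate dehydrogenase subunits on the same ratio were at 3.03 ± 0.441, 3.18 ± 0.222, 2.88 ± 0.0783 and 2.98 ± 0.128. Marker scaling moved the median of all tested genes to 0.25 with TAC in WT, 0.53 with TAC in cKO, 0.05 between the sham groups and 0.33 between the TAC groups. Relative to that median the members' median was -0.31, -0.57, -0.14 and -0.43, beside -0.31, -0.55, -0.13 and -0.41 with TMM. The scalings differ only in the factor of each library, which shifts all genes nearly alike. The near match of these values therefore follows from the method and is no separate observation.

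**Figure D5:**
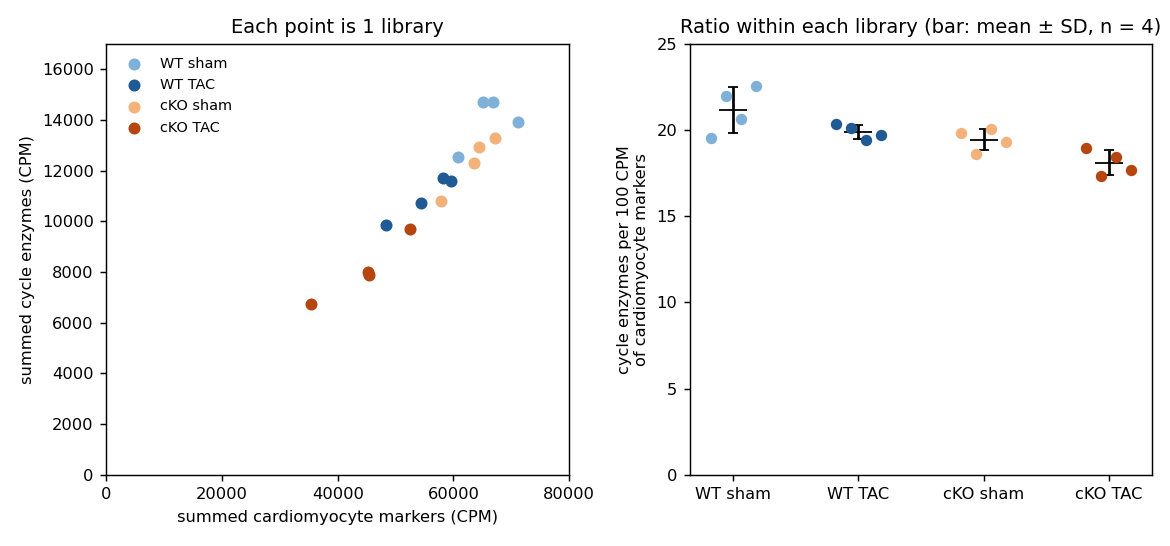
Left, summed CPM of the 16 cycle enzymes against summed CPM of the 10 cardiomyocyte markers, with 1 point per library; right, cycle enzymes per 100 CPM of those markers by group, with the mean ± SD (n = 4). The group mean of both sums is lowest in cKO TAC, and the mean ratio goes from 21.2 to 19.9 with TAC in WT and from 19.5 to 18.1 in cKO.

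A list of 39 other genes of the pathway, chosen by function, was followed beside the members. It covered succinate dehydrogenase, aconitase 2, the mitochondrial carriers, transaminases, lactate dehydrogenases, lipoate synthesis and propionate entry. With TAC in WT, 15 of 39 fell and 1 rose, with a median log2 fold change of -0.31. Of all tested genes, 6.14% fell and 9.7% rose. Without WT TAC replicate 1, 8 of the 39 fell, when 8% of all tested genes passed in either direction. Acss1, a mitochondrial acetyl-CoA synthetase, fell (log2 fold change -0.68, SE 0.12, adjusted p = 0.00103), as did D2hgdh, which clears D-2-hydroxyglutarate (log2 fold change -0.62, SE 0.11, adjusted p = 0.00117). ATP citrate lyase (Acly), which makes acetyl-CoA from citrate in the cytosol, rose (log2 fold change 0.25, SE 0.08, adjusted p = 0.0430). With TAC in cKO, 30 of 39 fell and 1 rose, with a median of -0.57, beside 12.4% of all tested genes lower and 14.2% higher. Ldhd, the D-lactate dehydrogenase (log2 fold change -1.05, SE 0.13, adjusted p = 4.36e-05), and Got1, the cytosolic aspartate transaminase (log2 fold change -0.68, SE 0.10, adjusted p = 0.000153), had the smallest adjusted p among those that fell, and Acly rose again (log2 fold change 0.24, SE 0.08, adjusted p = 0.0367). Between the sham groups the monocarboxylate transporter Slc16a1, which carries lactate and pyruvate, was higher in cKO (log2 fold change 0.43, SE 0.10, adjusted p = 0.0371) and 0 were lower. The Slc16a1 call was lost with the compared groups alone, and without WT sham replicate 1, 3 or 4 or cKO sham replicate 1, 2 or 4. Of all tested genes, 0.618% were higher and 0.552% lower between the sham groups. Between the TAC groups 5 were lower in cKO and 0 higher, led by Ogdhl, an isoform of Ogdh (log2 fold change -1.03, SE 0.19, adjusted p = 0.0157), and Pccb of propionyl-CoA carboxylase (log2 fold change -0.47, SE 0.10, adjusted p = 0.0287), with Ldhb, Ldhd and Slc25a13 as the others. Of all tested genes, 1.18% were lower and 0.598% higher there. The count of 5 was 0 without WT TAC replicate 2 or 3 or cKO TAC replicate 2 or 4, and 1 without WT TAC replicate 4 or cKO TAC replicate 1. It was 13 without WT TAC replicate 1 and 17 without cKO TAC replicate 3. Other fits gave 2 (the compared groups alone), 3 (library totals only, 1.54% of all genes), 9 (limma voom, 2.14%), 12 (no filter on low counts) and 17 (DESeq2's Wald test). For the other refits the share of all genes is given above beside the members. The interaction called 0 of 39 and 0% of all tested genes. An unadjusted p under 0.05 was found for 7 of the 39, beside 716 of all 15206 tested genes. Scaled by the cardiomyocyte markers, the medians of this list were -0.05, -0.06, -0.04 and -0.03 in the 4 comparisons. With that scaling 1 fell and 3 rose with TAC in WT, when 182 of all 15206 tested genes fell and 2581 rose. With TAC in cKO 5 fell and 7 rose, when 230 of all tested genes fell and 8799 rose. Between the sham groups 0 passed, beside 0.566% of all tested genes. Between the TAC groups 1 was lower in cKO and 0 higher, beside 51 lower and 1202 higher of all tested genes.

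Among 19 transcription factors and coactivators known to act on such genes, Esrra, which encodes the oestrogen-related receptor ERRα, fell with TAC in WT (log2 fold change -0.44, SE 0.10, adjusted p = 0.00695) and in cKO (log2 fold change -0.54, SE 0.10, adjusted p = 0.00105), as did Esrrb and Mitf. Perm1, a muscle regulator of oxidative genes, fell with TAC in cKO (log2 fold change -0.73, SE 0.12, adjusted p = 0.000303) and was lower in cKO than in WT after TAC (log2 fold change -0.63, SE 0.12, adjusted p = 0.0157). Esrrg, Ppard and Tfam also fell in cKO with TAC, and Hif1a and Tfe3 rose there, while Atf4 rose in WT. Myc rose with TAC in both genotypes and was higher in cKO than in WT after sham (log2 fold change 1.35, SE 0.23, adjusted p = 0.00651). Ppargc1a, the coactivator PGC-1α, passed in no comparison and was at 51.9 CPM on average in cKO TAC and 121 CPM in WT TAC (log2 fold change -1.22, SE 0.43, adjusted p = 0.164).

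With TMM scaling and all 16 libraries, 7 members passed in none of the 4 comparisons or the interaction: Aco1, Idh1, Pdk1, Pdk3, Pdk4, Pdpr and Me2. Each of them passed in at least 1 comparison under another setting. With TAC in cKO, Pdk4 fell without cKO sham replicate 1 (log2 fold change -1.08, adjusted p = 0.0414), and the other 6 rose when scaled by the cardiomyocyte markers. With TAC in WT, Idh1 fell by DESeq2's Wald test (log2 fold change -0.30, adjusted p = 0.0281) and in 5 other settings. Reads were not stated to be counted by strand. Of the exonic length in the GRCm38 annotation, 16.1% for Pdha1 and 23.1% for Mpc1 overlaps a gene on the opposite strand, and 7 members share some exonic bases in this way; without strand, the reads of such a pair cannot be told apart.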

How the data were processed

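Bulk RNA-seq was deposited for 16 left ventricle libraries, 4 in each of 4 groups. The authors' deposited values are unnormalized read counts for each Ensembl gene, all in 1 table, and were checked to be whole numbers. Per the submitters' processing notes, reads were handled with fastp 0.22.0 and FastQC, and with HISAT2 2.0.5, featureCounts 2.0.6 and SAMtools 1.21, in no stated order. The genome build named there is GRCm39, and whether counting used strand, which annotation it used and how multi-mapping reads were treated are not given in the sources used here. Kits and sequencing followed the labels' protocols: TRIzol with an Aurum column kit, NEBNext Ultra RNA libraries and paired-end Illumina reads.

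Symbols were matched for 51880 of 57186 gene IDs. The fit was made with edgeR 4.0.16 under R 4.3.3. After filterByExpr, libraries were scaled by TMM factors (0.908 to 1.139), and a robust quasi-likelihood model took in the 16 libraries together with a mean for each group (12 residual degrees of freedom). Adjustment was by Benjamini-Hochberg over 15206 genes within each comparison. SEs derive from the F statistics. Levels per kilobase divide CPM by the union of exons of GENCODE annotation of build GRCm38. Promoter windows came from RefSeq, GRCm38.p6. Called or separated members were read against the same share over all tested genes, without a set test.

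The members, the lists and the tests were chosen with earlier results of these data known. By the naming rule all 33 members appear, 20 with their value in every library: those that passed between genotypes, the 4 with the smallest adjusted p with TAC, and 12 named whatever they did. Of the other lists, the 2 genes with the smallest adjusted p in each direction are named. Library totals of 12946878 to 16347388 counts set the counting precision, and the biological coefficient of variation was 16.53%. On simulated data for TAC in WT, 38% of genes changed by 0.5 log2 units and 98% of those changed by 1 were recovered, and for cKO against WT after TAC 48% and 96%. Each simulation changed 50 of 15206 genes at each size, fewer than passed with TAC in the data. Adjusted p depends on that number, so these rates need not hold for the data. The alternatives were DESeq2 1.42.0 size factors and Wald test, limma 3.58.1 voom, library totals only, other filters, a replicate block, a fit to the compared groups alone, and leaving out mitochondrially encoded genes or each library. Scaling by cardiomyocyte markers and leaving out the 2 libraries with the most Myl7, an atrial transcript, were chosen after seeing the data.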

Additional observations from a re-analysis of the deposited data

Results flagged for a closer look

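In 4 libraries per group, the highest or lowest library was compared with the other 3, over 156 sets of values. Of these, 132 were of single members, and 24 were of summed roles or of the ratio of summed kinases to dehydrogenase subunits. A library stood apart in 10 of the 156, while chance gives about 1 in 20, so the number found is near that of chance.

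Sucla2 in cKO sham replicate 2 was at 428 CPM (others 492 to 493 CPM), and the same library was low for Pdk2 at 386 CPM (489.8 to 511) and for Me3 at 61.7 CPM (74.5 to 76.3). WT TAC replicate 1 was low for Pdha1 at 567 CPM (619.7 to 628), for Pdk2 at 322 CPM (379 to 389) and for Me3 at 59.8 CPM (79.0 to 82.2). These 2 libraries had the lowest summed cardiomyocyte markers of their groups, 57943 and 48355 CPM, whose part in the low values was not tested.

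Pdhx in WT TAC replicate 4 was at 92.5 CPM (117 to 122) and Mpc1 in WT TAC replicate 3 was high at 51.0 CPM (43.1 to 44.0). Pdk3 in WT sham replicate 3 was at 4.21 CPM (1.76 to 2.16), in the library with the most Myl7, an atrial transcript (870.2 CPM), whose part was not tested. The summed pyruvate dehydrogenase subunits of WT sham replicate 1 were at 1701 CPM (2058 to 2118).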

How the results depend on the processing

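The share of all tested genes that passed is given in brackets. With TAC in WT the count of 9 members became 4 with library totals only (17.1%) and 19 by DESeq2's Wald test (19.7%), the 9 among them. It became 1 when scaled by cardiomyocyte markers (18.2%). With TAC in cKO the count of 23 became 10 with that scaling (59.4%): 2 of the 23 passed as lower, and 8 members outside the 23 passed as higher. For cKO against WT after sham the count of 1 became 2 without a filter (0.823%) and 2 by the Wald test (3.59%). After TAC the count of 8 became 16 without a filter (1.35%), 18 by the Wald test (5.85%) and 2 with the compared groups alone (1.04%). It became 5 without the 2 libraries with the most Myl7, an atrial transcript (1.07%), and 0 scaled by markers (8.24%). Leaving out each library in turn gave 4 to 10 members with TAC in WT (8% to 15.9%) and 21 to 23 in cKO (17.6% to 27.8%). It gave 0 to 1 between sham groups (0.382% to 1.37%) and 0 to 21 between TAC groups (0.0841% to 5.91%). The summed carrier subunits of WT sham were at 330.4 CPM with library totals only, against 352 CPM. The causes of these shifts were not tested.

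Scaling by cardiomyocyte markers turned these log2 fold changes positive: with TAC in WT, Mpc2 0.0474 and Me1 0.0148; with TAC in cKO, Pdha1 0.0696, Dlat 0.0843, Pdhx 0.142, Mpc1 0.0725, Pcx 0.35, Me1 0.368 and Me3 0.0639; between sham groups, Pcx 0.0125 and Me1 0.00569; between TAC groups, Pdha1 0.0683 and Mpc1 0.171; and in the interaction, Idh3a 0.0687, Idh3g 0.0494, Ogdh 0.0537, Pdha1 0.0988 and Mpc1 0.172. With library totals only, Me1 with TAC in cKO was at 0.0316. Pdk4 with TAC in WT was at 0.137 without the 2 libraries with the most Myl7, and from -0.614 to 0.0914 leaving out each library. On that leave-one-out range Mpc1 between sham groups ran from -0.162 to 0.0835 and Me1 between TAC groups from -0.00189 to 0.0542.

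With the replicate number as a block, 8, 23, 1, 9 and 0 members passed in the 4 comparisons and the interaction. In the same order, 15.4%, 26.2%, 1.55%, 1.99% and 0% of all tested genes passed. Of 24 same-numbered pairs of libraries, 4 deviated together with a correlation over 0.1 (range -0.16 to 0.23). With 4 numbers to choose from, 6 of 16 libraries correlated best with their own number. Such correlations cannot show whether same-numbered samples were paired or handled together. With 4 libraries a group, members changed by about 0.3 log2 units with TAC in WT were often not called, although Me1 (-0.25) and Me3 (-0.35) were. Of genes simulated with a change of 0.3, 6% were recovered. That simulation changed 50 of 15206 genes at each size, whereas 2409 passed with TAC in WT. Its adjusted p was therefore stricter, and its rate does not carry over to the data.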

Other observations

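These values were chosen after they were seen. In cKO sham, the library with the lowest Pdk4 (223 CPM in replicate 1, against 856 to 1177 CPM in the others) was also the lowest for Angptl4, a lipoprotein lipase inhibitor that like Pdk4 is induced by fatty acids: 4.30, 29.8, 36.4 and 21.97 CPM in replicates 1 to 4. Txnip, which limits glucose uptake, was at 416, 792, 644 and 859 CPM in the same libraries. In WT sham Angptl4 was at 13.1, 3.73, 13.6 and 3.40 CPM, with Pdk4 highest in replicate 3. The feeding state of the mice is not given in the sources used here, and its part was not tested.

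Nnt, the mitochondrial transhydrogenase that makes NADPH beside the NADP-dependent isocitrate dehydrogenase, was at 0.757 to 3.71 CPM (12 to 57 counts) in the 16 libraries. The annotation gives the symbol to 2 gene IDs; these counts are those of ENSMUSG00000025453, and ENSMUSG00000116207 had 0 counts in every library. Idh2, in the same compartment, was at 858 to 2271 CPM. As background, mice of the C57BL/6J substrain carry a deletion in Nnt, whereas the labels name the strain C57/BL6N. What underlies the low level was not tested.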
